A study of Mus musculus with 12 samples.

Results

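Claudins and other tight junction genes were examined in mouse intestinal tumor organoids, that is, cell clusters grown in culture from serrated tumors. The 10 genes were Cldn1, Cldn2, Cldn3, Cldn4, Cldn7, Cldn15, Cldn18, Cldn23, Ocln and Tjp1, chosen by name from 24906 genes listed in both deposited expression tables. Tumor organoids came from Smad4KO;BRAFV600E/+ mice, in which Villin-CreERT2, a tamoxifen-inducible Cre of the intestinal epithelium, deleted Smad4 and switched on the oncogenic BRAF allele, so untreated controls carry both changes too. All 12 libraries are labelled as pINDUCER-SMAD4, a lentiviral vector from which doxycycline (dox) switches on SMAD4, the partner that TGFβ and BMP receptor SMADs share in the nucleus. Cultures were kept for 48 h with 4 µg/mL dox or without it, in BME, a gel of basement membrane proteins in which organoids grow in 3D, or on tissue culture plastic, and the labels give small intestine as the tissue.

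In BME lines 682, 700 and 889 each gave 1 untreated library, and lines 700 and 889 gave 1 dox library each. A further BME library, of line 682, has conflicting labels, since its title reads dox and its treatment adds the word mock. The study counts 4 vehicle and 2 dox libraries, and the mock library was placed with the controls accordingly. On plastic lines 560, 700 and 889 each gave 1 untreated and 1 dox library. Each line is an organoid culture, so untreated and dox libraries of a line formed a pair. Each table was normalized on its own, so levels were compared between BME and plastic only by rank within a library.

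Tight junctions seal the space between neighboring epithelial cells. Claudins are membrane proteins with 4 transmembrane segments whose mixture sets which ions pass: Cldn1, Cldn3, Cldn4, Cldn7 and Cldn18 are known mainly as sealing or barrier claudins, whereas Cldn2 and Cldn15 form pores for small cations. Occludin (Ocln) is a further membrane protein of the junction, and Tjp1 encodes ZO-1, the scaffold that ties claudins to the actin cytoskeleton. Cldn2 is known in the gut mainly from crypts, Cldn15 from small intestine, and Cldn18 from stomach.

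Cldn3 and Cldn4 are neighbors on chromosome 5, with Cldn4 at 135420996 to 135422804 on the minus strand and Cldn3 at 135462084 to 135463342 on the plus strand (NCBIM37). They point away from each other across 39279 bases that hold 0 other protein-coding genes. Cldn15 also lies on chromosome 5, from 137442486 to 137451728, Cldn7 on chromosome 11 from 69778281 to 69781387, and Cldn2 on chromosome X from 136335367 to 136345925. The annotation gives Cldn4 and Cldn23 a single exon each.

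Promoter windows of 250 bases before to 50 after the start of transcription were found for 9 of 10 genes in RefSeq (GRCm38.p6), without Cldn23. The windows of Cldn4 (chr5:134946885-134947184, minus strand), Cldn3 (chr5:134985964-134986263, plus strand) and Cldn7 (chr11:69964529-69964828, plus strand, the more upstream of its windows) are shown because these 3 genes made up most of the claudin signal and took different shares of it with dox on plastic. Capitals mark GTCT or its other strand AGAC, the core letters of the SMAD binding element.
Cldn4: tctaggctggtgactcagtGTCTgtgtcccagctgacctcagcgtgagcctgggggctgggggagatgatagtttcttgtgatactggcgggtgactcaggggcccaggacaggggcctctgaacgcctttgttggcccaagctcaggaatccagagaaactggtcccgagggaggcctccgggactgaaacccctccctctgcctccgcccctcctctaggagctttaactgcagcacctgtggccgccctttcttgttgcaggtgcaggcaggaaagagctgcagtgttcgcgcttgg
Cldn3: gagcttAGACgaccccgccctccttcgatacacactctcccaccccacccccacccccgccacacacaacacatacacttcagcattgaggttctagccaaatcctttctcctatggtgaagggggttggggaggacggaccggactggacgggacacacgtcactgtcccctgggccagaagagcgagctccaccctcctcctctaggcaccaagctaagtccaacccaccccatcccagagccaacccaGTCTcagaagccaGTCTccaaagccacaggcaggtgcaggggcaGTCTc
Cldn7: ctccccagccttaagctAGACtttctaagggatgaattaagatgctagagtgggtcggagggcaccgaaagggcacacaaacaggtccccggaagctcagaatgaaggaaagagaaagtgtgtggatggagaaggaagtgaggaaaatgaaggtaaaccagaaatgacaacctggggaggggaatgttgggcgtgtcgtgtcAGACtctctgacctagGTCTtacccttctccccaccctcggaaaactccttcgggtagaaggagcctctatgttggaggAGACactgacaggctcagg
The Cldn4 window held 1 such match, the Cldn3 window 4 and the Cldn7 window 4. At least 1 match was present in 88.0% of 32851 RefSeq windows, with a median of 2. The Cldn2 window held 0 matches. CACCTG or CAGGTG, an E-box bound by ZEB and Snail proteins, occurred 2 times in the Cldn4 window, 1 time in the Cldn3 window and 0 times in the Cldn7 window shown, but 2 times in the other Cldn7 window, against 20.2% of all windows with at least 1. A match describes letters and not a bound site.

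Libraries held 14531214 to 21068533 rebuilt reads and 15723 to 16805 genes above 0. Smad4 was examined first as the induced gene, with values in FPKM, which scales fragments to transcript length and library size. In BME it was 6.53 untreated and 17.2 with dox in line 700, 6.23 and 27.3 in line 889, and 8.88 untreated and 10.3 in the mock library of line 682. On plastic Smad4 was 1.54 untreated and 73.6 with dox in line 560, 2.99 and 18.1 in line 700, and 4.76 and 48.9 in line 889. Both dox libraries in BME and all 3 on plastic were above every control library, and the mock library stood with the controls. The limma fit over all genes put the Smad4 change at 1.36 (SE 0.27, adjusted p = 0.959) in BME. On plastic it was 3.42 (SE 0.55, adjusted p = 0.162), so even the induced gene did not pass an adjusted p of 0.05. Whether all reads of the construct were assigned to mouse Smad4 is not known here.

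Epithelial markers were high everywhere, with 7 markers summing to 3827 to 9457 FPKM in BME and 11564 to 17166 on plastic. In BME the sum was 7444 to 9457 in dox and 3827 to 4813 in control libraries, which did not overlap. This difference moves with dox in BME, and its part in the values there was not tested. Fibroblast markers summed to at most 5.15 FPKM, endothelial to at most 3.65 and smooth muscle to at most 1.65, and Lum, a fibroblast proteoglycan, was at 0 in all control and all plastic libraries. Immune markers summed to 2.83 to 38.8 FPKM, nearly all of it Cd68, a lysosomal protein that epithelial cells can also express, whereas Ptprc, the defining leukocyte marker, was at most 0.0958. In bulk samples fewer cells of a type and less RNA per cell cannot be told apart.

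Of the 10 genes, 8 reached a mean of 0.5 FPKM over 6 libraries in each table and were tested. The comparison used limma on log2(FPKM + 1) with Benjamini-Hochberg adjustment over all genes tested. A call required an adjusted p below 0.05 together with a change of more than 1 in either direction. None of the 8 was called in BME, where 0.0231% of 12996 genes were called, and none on plastic, where 0.0324% of 12333 were. At an unadjusted p under 0.05 the counts were 0 of 8 in BME and 1 of 8 on plastic, against 4.09% and 8.29% of all genes. Changes of more than 1 in either direction were found for 0 of 8 in BME and 2 of 8 on plastic (Cldn2 and Cldn4), against 2.99% and 5.85% of all genes. In BME 0 of 8 genes had every dox library above the controls and 0 of 8 had every one below, against 6.33% and 5.83% of all genes, and 3 (Cldn15, Cldn23 and Tjp1) were lower in both induced pairs, against 29.5%. The median change was 0.03 in BME and 0.14 on plastic, beside -0.01 and 0.01 over all genes tested.

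**Figure D1:**
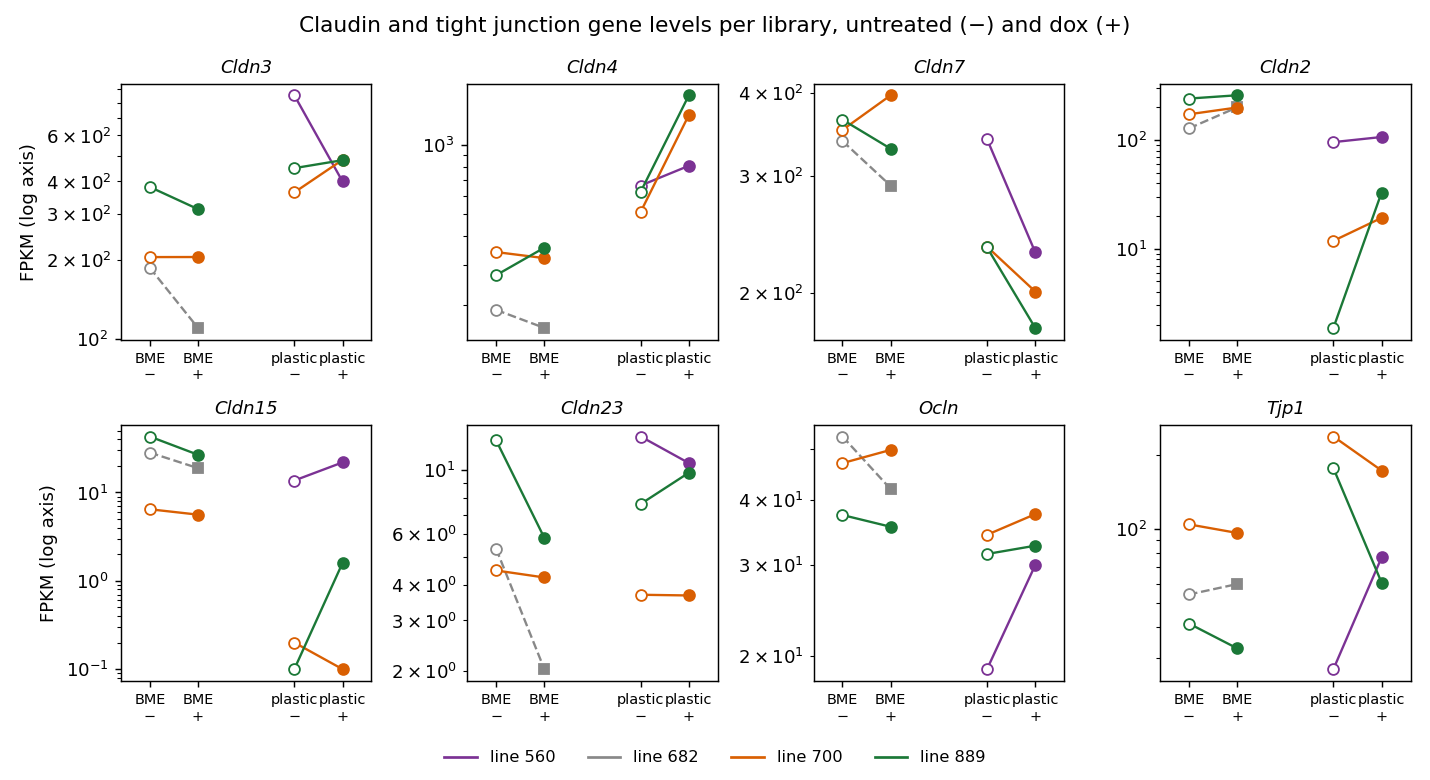
FPKM on a log axis for the 8 tested genes, per library, with untreated libraries as open and dox libraries as filled circles, the mock library as a filled square, and lines joining libraries of the same organoid line. Values at 0 are drawn at 0.1, and the BME and plastic tables were normalized separately. All 3 dox libraries lie above the untreated ones for Cldn4 on plastic (809 to 1642 against 509 to 664 FPKM) and below them for Cldn7 (177 to 230 against 234 to 340).

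Cldn4 was the gene with the smallest p among the 8, on plastic. Cldn4 was 664 FPKM untreated and 809 with dox in line 560, 509 and 1348 in line 700, and 623 and 1642 in line 889. Every dox library was above every untreated library, as for 7.87% of all genes in that direction. The mean was 1266 ± 423 FPKM (SD, n = 3) with dox and 599 ± 80.0 (SD, n = 3) untreated. The limma change was 1.03 (SE 0.32, 95% interval 0.26 to 1.80), with an unadjusted p of 0.0162 and an adjusted p of 0.505. The exact permutation test over libraries (two-sided) gave p = 0.1, the smallest that 3 against 3 libraries allow. Here and below this test shuffled libraries freely and did not keep the pairs of a line together. Lines 700 and 889 differed alike, by 1.40 each on the log2(FPKM + 1) scale, whereas line 560 differed by 0.29.

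In BME the Cldn4 groups overlapped. The values were 340 FPKM untreated and 320 with dox in line 700, 270 and 355 in line 889, and 190 untreated and 159 in the mock library of line 682. The pair difference was -0.09 in line 700 and 0.40 in line 889, so the lines went opposite ways. The limma change of 0.55 (SE 0.32, adjusted p = 0.959) includes the controls of line 682, which has no induced partner and the lowest Cldn4. With lines as a block it was 0.15 (SE 0.18, adjusted p = 0.835), and with the mock library counted with dox it was 0.0167 (SE 0.37).

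Cldn3, a sealing claudin that shares the chromosomal neighborhood, showed no common direction on plastic. It was 855 FPKM untreated and 400.1 with dox in line 560, 363 and 484 in line 700, and 450 and 483 in line 889. The pair differences were -1.09, 0.41 and 0.10, and the groups overlapped. The limma change was -0.19 (SE 0.35, adjusted p = 0.930). In BME Cldn3 was 206 with dox and 205 without in line 700, and 314 with dox and 381 without in line 889. Its limma change there was 0.34 (SE 0.48, adjusted p = 0.965), and -0.14 (SE 0.28) with lines as a block. The mock library of line 682 had 110.1 FPKM against 187 untreated, a difference of -0.76, which was larger than in either induced line.

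Cldn7, a barrier claudin also found along the lateral membrane, went the other way from Cldn4 on plastic. It was 340.4 FPKM untreated and 230.1 with dox in line 560, 235 and 201 in line 700, and 234 and 177 in line 889. Every dox library was below every untreated one, as for 7.26% of all genes in that direction, although the margin was only 230.1 against 234 FPKM. The limma change was -0.40 (SE 0.24, 95% interval -0.96 to 0.17, adjusted p = 0.723), and the exact permutation test gave p = 0.1, again the smallest possible. Without untreated line 560 the change was -0.22. Over the 12 libraries Cldn7 varied least of the 8 genes, with an SD of 0.24 on the log2(FPKM + 1) scale centered within each table, against 1.56 for Cldn15. In BME it ran from 290 FPKM in the mock library to 396 with dox in line 700, and the limma change was 0.11 (SE 0.16, adjusted p = 0.965).

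**Figure D2:**
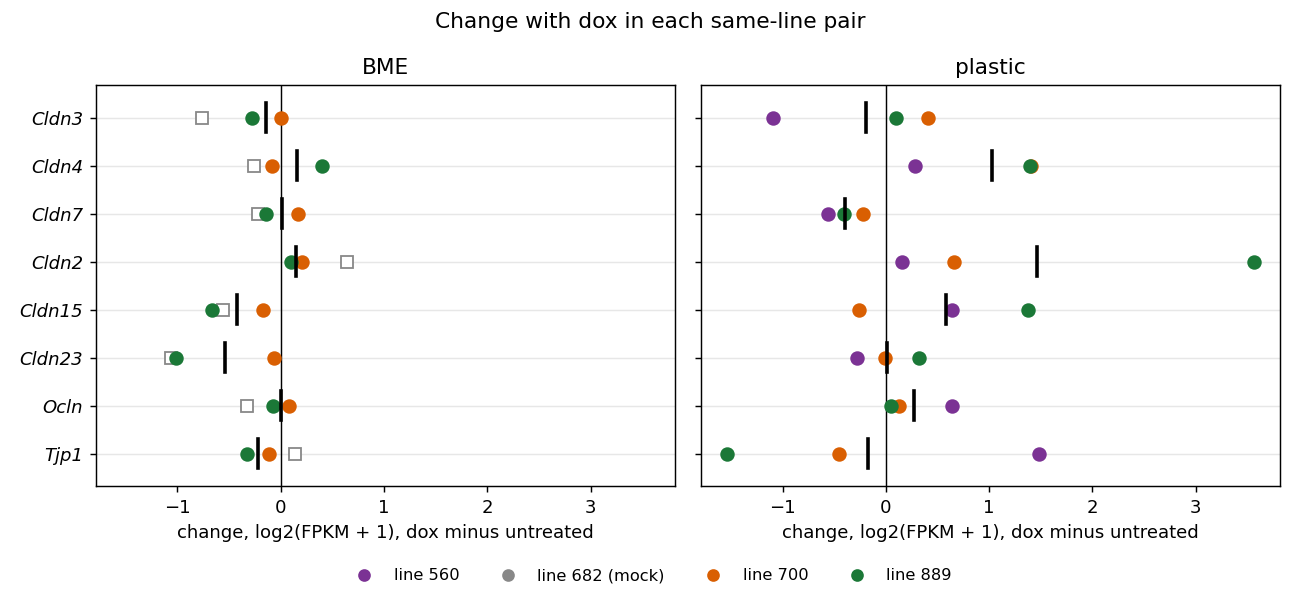
Change in log2(FPKM + 1), dox minus untreated, in each same-line pair (filled circles), with the mock pair of line 682 as open squares and vertical bars at the mean of the induced pairs. On plastic Cldn4 lies above 0 in all 3 lines and Cldn7 below 0 in all 3, and Cldn2 spreads from 0.15 to 3.56.

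Of the pore-forming claudins, Cldn2 was higher with dox in every induced pair of both tables, but by unequal amounts. In BME it was 173 FPKM untreated and 199.5 with dox in line 700, and 241 and 259 in line 889. The mock library of line 682 had 199.97 FPKM against 128 untreated, a larger difference (0.64) than in either induced pair (0.21 and 0.10). On plastic Cldn2 was 95.8 untreated and 107 with dox in line 560, 11.8 and 19.2 in line 700, and 1.87 and 32.9 in line 889. The lines differed far more than the treatments within line 560 or 700, and the groups overlapped. Limma gave a change of 0.33 in BME (SE 0.27, adjusted p = 0.959) and 1.46 (SE 1.28, 95% interval -1.61 to 4.53, adjusted p = 0.823) on plastic. The BME value was 0.15 with lines as a block, 0.16 without untreated line 682, 0.14 without dox line 889 and 0.51 without dox line 700. With 1 library left out the plastic value ran from 0.25 without untreated line 889 and 0.78 without dox line 560 to 2.79 without untreated line 560. The plastic value was 1.46 (SE 0.67, adjusted p = 0.434) with lines as a block. Higher values in every pair were found for 27.2% of all genes in BME and 18.6% on plastic.

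Cldn15 split the lines rather than the treatments. In BME it was 28.3 FPKM untreated in line 682 and 18.9 in its mock library, 6.46 untreated and 5.61 with dox in line 700, and 43.0 and 26.8 in line 889. On plastic it was 13.7 untreated and 21.9 with dox in line 560, 0.20 and 0 in line 700, and 0 and 1.59 in line 889. Line 700 was lowest in BME, and both line 700 and line 889 were close to 0 on plastic, where a rebuilt count of 0 allows up to 3 reads. Limma gave a change of -0.63 in BME (SE 0.84, adjusted p = 0.963) and of 0.58 on plastic (SE 1.44, adjusted p = 0.952), with intervals that spanned 0. With 1 library left out these ran from -1.66 (without dox line 889) to 0.408 (without dox line 700) in BME and from -0.692 (without dox line 560) to 1.83 (without untreated line 560) on plastic.

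Cldn23, a claudin of differentiated gut epithelium, stayed at a low level of 2.03 to 13.1 FPKM. In BME it was 4.48 untreated and 4.24 with dox in line 700, 12.7 and 5.82 in line 889, and 5.33 and 2.03 in the untreated and mock libraries of line 682. The mock pair (-1.06) thus differed as much as the induced pair of line 889 (-1.01). On plastic the pair differences were -0.28, -0.01 and 0.32 for lines 560, 700 and 889. Limma gave a change of -0.04 in BME (SE 0.56, adjusted p = 0.995) and of 0.01 on plastic (SE 0.51, adjusted p = 0.996). The BME value was -0.54 (SE 0.42, adjusted p = 0.753) with lines as a block, -0.39 with the mock library left out and -0.71 with it counted with dox.

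Cldn1 and Cldn18 were too low to test. Cldn1 had 1 rebuilt read in each untreated BME library, 2 in untreated line 889 on plastic and 0 in the other 8 libraries. Cldn18, the gastric claudin, was above 0 in all 12 libraries, but at 0.0225 to 0.355 FPKM, or 1 to 19 rebuilt reads. Line 700 had the highest Cldn18 in untreated cultures of both tables, with 0.348 FPKM in BME and 0.355 on plastic. On plastic Cldn18 was lower with dox in each line, at 0.142 against 0.178, 0.217 against 0.355 and 0.0693 against 0.263 FPKM, and the groups overlapped.

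Occludin, Ocln, was close to even in BME, at 47.0 FPKM untreated and 49.9 with dox in line 700, 37.4 and 35.5 in line 889, and 52.9 and 41.9 in the untreated and mock libraries of line 682. On plastic it was 18.9 untreated and 29.9 with dox in line 560, 34.2 and 37.5 in line 700, and 31.5 and 32.6 in line 889. The 3 plastic pairs were all higher with dox, by 0.64, 0.13 and 0.05, but the groups overlapped and line 560 gave most of the mean difference. Limma gave a change of -0.08 in BME (SE 0.21, adjusted p = 0.980) and of 0.27 on plastic (SE 0.26, adjusted p = 0.845). The plastic value was 0.0169 without untreated line 560 and 0.43 without untreated line 700.

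Tjp1, the ZO-1 scaffold, took opposite directions in the plastic lines. It was 26.9 FPKM untreated and 76.7 with dox in line 560, 239 and 173 in line 700, and 177 and 60.6 in line 889. The pair differences were 1.48, -0.46 and -1.53, so line 560 was higher with dox and lines 700 and 889 were lower. In BME Tjp1 was 105 untreated and 96.6 with dox in line 700, 41.3 and 32.7 in line 889, and 54.2 and 59.7 in the untreated and mock libraries of line 682. Limma gave a change of -0.12 in BME (SE 0.51, adjusted p = 0.993) and of -0.17 on plastic (SE 0.85, adjusted p = 0.979). With 1 library left out these ran from -0.884 (without dox line 700) to 0.649 (without dox line 889) in BME and from -1.13 (without untreated line 560) to 0.417 (without untreated line 700) on plastic.

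Because FPKM is per length, claudins of a library can be set against each other, and their shares do not depend on how the library was scaled. This comparison was added after values had been seen. Over 26 claudins in the tables, summed levels were 806 to 1337 FPKM in BME and 1152 to 2382 on plastic, and the 6 members Cldn2, Cldn3, Cldn4, Cldn7, Cldn15 and Cldn23 held 96.7% to 99.2% of them. On plastic Cldn4 made up 33.2% of the claudin sum untreated and 50.4% with dox in line 560, 44.2% and 64.4% in line 700, and 46.2% and 69.0% in line 889. The share was thus higher by 17.1, 20.2 and 22.7 percentage points, and the groups did not overlap. The FPKM behind these shares differed by line. In line 560 Cldn4 was 809 FPKM with dox and 664 untreated, Cldn3 400.1 and 855, and the claudin sum 1606 and 1997. The claudin sum was higher with dox in line 700 (2091 against 1152) and line 889 (2382 against 1349), where Cldn3 was not lower.

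The share of Cldn3 on plastic was 42.8% untreated and 24.9% with dox in line 560, 31.5% and 23.1% in line 700, and 33.4% and 20.3% in line 889. That of Cldn7 was 17.0% and 14.3%, 20.4% and 9.60%, and 17.4% and 7.43% in the same order. Neither overlapped between groups, and the exact permutation test gave p = 0.1, the smallest possible, for each of these 3 shares. The plastic shares of Cldn2 and Cldn15 overlapped, and the exact permutation test gave p = 0.6 for Cldn2 and p = 0.7 for Cldn15. Cldn4 and Cldn7 had already separated in FPKM in the same libraries, so their shares are not a separate test. How often shares of other genes separate was not tested. Shares sum to 100%, so a larger share of any claudin goes with smaller shares of others. The shares of Cldn4, Cldn3 and Cldn7 are therefore not independent, and which gene moved the others cannot be read from shares. In BME the Cldn4 share was 27.7% with dox and 30.6% without in line 700, and 27.0% and 20.2% in line 889, within the control range of 19.7% to 30.6%.

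**Figure D3:**
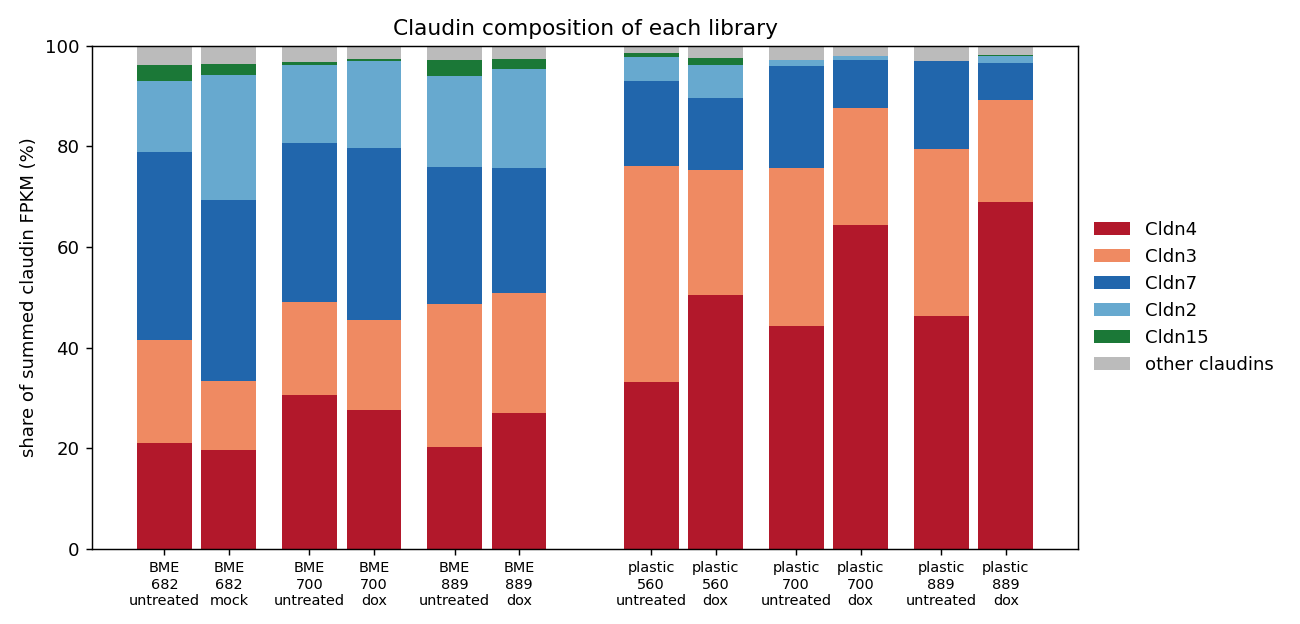
Share of the summed FPKM of 26 claudins held by each gene, as stacked bars per library, with untreated and dox (or mock) libraries of a line side by side. In BME each of Cldn7, Cldn4, Cldn3 and Cldn2 holds 13.7% to 37.3%, on plastic Cldn2 is at most 6.65%, and Cldn4 reaches 50.4% to 69.0% with dox.

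The order of levels within a library also differed by culture. Cldn7 led the 10 genes in 4 of 6 BME libraries, with Cldn4 first in dox line 889 and Cldn3 first in untreated line 889. In BME Cldn2, Cldn3, Cldn4 and Cldn7 lay within the range of 110.1 to 396 FPKM, and neighbors in that order were not separated beyond the spread over libraries. On plastic Cldn4 led in 5 of 6 libraries and Cldn3 in untreated line 560. Ocln and Tjp1 lay below the 4 leading claudins in every BME library, and Cldn23, Cldn18 and Cldn1 were last in all 6.

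Ranks within a library were taken as percentiles among 11977 genes kept in both tables. Untreated Cldn2 stood at percentiles 94.5, 96.0 and 97.4 in BME and at 16.1, 53.6 and 91.5 on plastic. In lines 700 and 889, which were sequenced from both cultures, it was lower on plastic by 42.4 and 81.2 percentile points untreated, and by 31.1 and 20.7 with dox. Cldn15 was lower by 27.6 and 81.4 points untreated in these lines, although the groups overlapped through line 560, at percentile 58.4. Cldn4 moved little in rank, from 96.6 to 98.1 in BME to 98.6 to 99.0 on plastic, but without overlap. Among the 8 genes, Cldn4 ranked above and Cldn2, Cldn7 and Ocln ranked below in every untreated plastic library, against 18.2% and 15.3% of all genes in these directions. Each had an exact permutation p of 0.1, the smallest possible, and line composition differs, since line 682 was present in BME alone and line 560 on plastic alone. Tjp1 ranked higher on plastic in line 700 (by 4.48 points) and line 889 (by 15.3 points) and lowest of all untreated libraries in line 560.

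**Figure D4:**
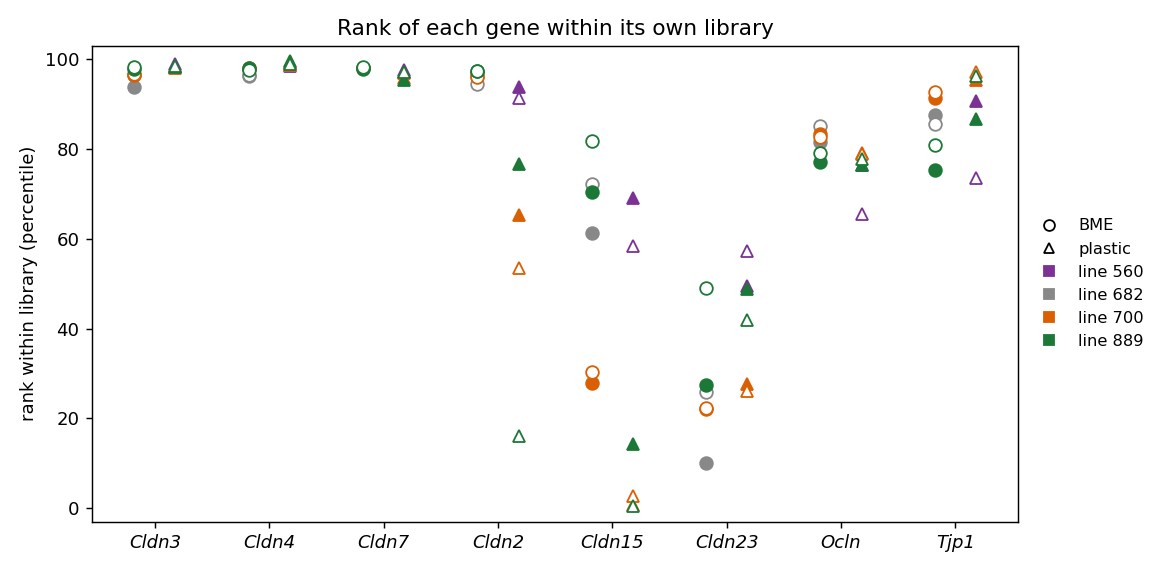
Percentile rank of each gene among 11977 genes of its own library, for BME (circles) and plastic (triangles), with untreated libraries open, dox or mock libraries filled, and colors for lines. Cldn3, Cldn4 and Cldn7 stand at percentile 93.9 or higher throughout, whereas Cldn2 and Cldn15 drop on plastic in lines 700 and 889.

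The test of whether the dox change differed between plastic and BME used the interaction of dox and environment over 11977 genes. None of the 8 genes passed it, as 0.0% of all genes did, with 0 of 8 and 303 of all genes (2.53%) at an unadjusted p under 0.05. The difference was above 0 for 5 of 8 genes, against 51.4% of all, and more than 1 in either direction for 2 (Cldn2 and Cldn15), against 4.84%. The difference in change was 0.47 for Cldn4 (SE 0.46, 95% interval -0.55 to 1.498), -0.51 for Cldn7 (SE 0.28, interval -1.12 to 0.11) and 1.13 for Cldn2 (SE 1.49), each with an adjusted p of 1.00 in limma. For Cldn4 it was 0.87 (SE 0.41, adjusted p = 0.920) with lines as a block, 1.011 with the mock library counted with dox and 1.24 (SE 0.29, adjusted p = 1.00) in lines 700 and 889 alone. In these lines alone it was 1.96 (SE 0.97) for Cldn2 and -0.33 (SE 0.22) for Cldn7. The larger Cldn4 values did not pass the adjusted threshold, and the interval above includes both 0 and a difference of more than 1.

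The genes with the profile most like that of Cldn2 over the 12 libraries, by root mean square difference of log2(FPKM + 1) centered within each table, were Kcne3 (0.51), Ifi27l2b (0.55) and Tm4sf5 (0.59). Kcne3, a potassium channel subunit of intestinal secretion, was 23.6 to 70.3 FPKM in BME, 24.3 and 33.2 in line 560 on plastic, and 1.16 to 5.71 in lines 700 and 889 on plastic. For Cldn15 they were Rgcc (0.54), Ascl2 (0.56) and Rnf186 (0.56). Ascl2, a WNT-responsive transcription factor of crypt stem cells, was 10.8 to 42.0 FPKM in BME, 26.8 and 18.4 in line 560 on plastic, and 0.255 to 2.43 in the other 4 plastic libraries. For these 6 genes, as for Cldn2 and Cldn15, both libraries of line 560 were above the other 4 on plastic. The genes were chosen for this likeness, which is a description over 12 libraries that share lines.

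Other claudins added little. Of 18 listed, 3 were tested in BME and 2 on plastic, and none was called. Cldn12, which lacks the common scaffold-binding end, was 21.8 to 25.8 FPKM in BME and 12.9 to 34.8 on plastic, with limma changes of 0.01 and 0.51. Cldn8 had a change of -0.31 in BME, and Cldn9 changes of -0.13 in BME and -0.57 on plastic, all below 3 FPKM.

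Of 14 other tight junction membrane proteins, 10 were tested in each table and none was called, with a median change of 0.28 in BME and 0.23 on plastic. Changes were above 0 for 9 of 10 in BME and 9 of 10 on plastic, against 49.0% and 51.1% of all genes. The lists below for adherens junctions (12 of 13 and 11 of 13), desmosomes (11 of 12 and 8 of 12) and epithelial markers (7 of 7 and 6 of 7) leaned the same way. Plaque and polarity proteins did not (11 of 25 and 9 of 26). Igsf5, a junctional adhesion molecule of the immunoglobulin family, was higher without overlap in both tables. It was 45.5 and 48.9 FPKM with dox and 18.7 to 31.6 in controls in BME (change 1.03, SE 0.24, adjusted p = 0.959). On plastic Igsf5 was 40.5 to 81.6 with dox and 17.2 to 35.7 untreated (change 1.22, SE 0.36, adjusted p = 0.485). Vmp1, a membrane protein of the endoplasmic reticulum also described at cell contacts, had changes of 0.63 and 0.59, and Ildr1, of tricellular contacts, 0.54 in BME. Jam2 had a change of 0.60 on plastic, where it was above 1 FPKM in line 700 alone.

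Of 28 plaque and polarity proteins, 25 were tested in BME and 26 on plastic, with 0 called and medians of -0.11 and -0.13. Ybx3, a Y-box protein that binds ZO-1, was 143 to 169 FPKM with dox and 196 to 279 untreated on plastic (change -0.58, SE 0.21, adjusted p = 0.567). Cgnl1, or paracingulin, had a change of -0.88, and Mpp5, the PALS1 scaffold of apical polarity, 0.67, both with overlapping groups.

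Among 13 adherens junction genes, all tested in both tables with 0 called, the median change was 0.24 in BME and 0.16 on plastic. Ctnnb1, or β-catenin, which links cadherins to actin and also carries WNT signals, was 574 to 1205 FPKM with dox and 149 to 286 untreated on plastic. Its change there was 1.88 (SE 0.38, adjusted p = 0.282), whereas in BME it was higher in line 889 (717 against 304 FPKM) and not in line 700 (355 against 402). Nectin1, an adhesion molecule of the immunoglobulin family, was 9.75 to 18.5 FPKM with dox and 1.15 to 8.05 untreated on plastic (change 1.88, SE 0.58, adjusted p = 0.505). Epcam, an epithelial adhesion molecule that binds Cldn7, had a change of 0.97 on plastic with overlapping groups.

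Desmosome genes gave 0 calls of 12 tested in each table, with medians of 0.33 and 0.34. Jup, or plakoglobin, was 146 and 157 FPKM with dox and 90.7 to 124 in controls in BME (change 0.51, SE 0.17, adjusted p = 0.959). Pkp1 had a change of 1.06 in BME, and Perp 1.09, Jup 0.62 and Dsc2 0.52 on plastic, all with overlap. The Pkp1 value includes the controls of line 682 (2.87 FPKM untreated and 2.19 mock), which has no induced partner. In the induced pairs in BME Pkp1 was 22.5 with dox and 17.7 untreated in line 700, and 6.15 and 5.54 in line 889. Of gap junction genes, 5 were tested in BME and 6 on plastic with 0 called. Gjb5, a connexin, had a change of 0.72 on plastic with overlapping groups.

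Actomyosin attached to the junction sets its tension. Of 9 genes of myosin light chain control, 8 were tested, and changes were above 0 for 8 of 8 in BME (median 0.15) and for 2 of 8 on plastic (median -0.17), with 0 called, against 49.0% and 51.1% of all genes above 0. Myl12b, a myosin regulatory light chain, was 635 to 695 FPKM with dox and 1291 to 1329 untreated on plastic, without overlap (change -0.98, SE 0.20, adjusted p = 0.290). Myh14, a nonmuscle myosin heavy chain, was 16.7 to 45.4 with dox and 46.1 to 77.3 untreated (change -1.05, SE 0.41, adjusted p = 0.583).

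Among 12 transcription factors of epithelial-mesenchymal transition or its restraint, 7 were tested in BME and 8 on plastic, with 0 called. Zeb1, a repressor of junction genes, was 1.19 to 3.37 FPKM with dox and 0.0163 to 0.235 untreated on plastic (change 1.53, SE 0.30, adjusted p = 0.275). In BME Zeb1 was at most 0.506 FPKM and was not tested. Ovol2 had changes of -0.75 in BME and -0.59 on plastic, and Snai3 of -0.54 on plastic. Of 10 intestinal transcription factors, 9 were tested in BME and 8 on plastic with 0 called. Gata6 was 94.4 and 132 FPKM with dox in lines 560 and 889 on plastic against 14.1 and 14.7 untreated, but 13.5 against 9.18 in line 700 (change 2.08, SE 0.80, adjusted p = 0.583). In BME Gata6 had a change of 1.19, again from line 889, and Gata4 had a change of 0.64 on plastic.

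The 7 epithelial markers gave 0 calls. Krt8 was 2206 and 2811 FPKM with dox and 929 to 1322 in controls in BME (change 1.13, SE 0.22, adjusted p = 0.959), with Krt18 (0.91) and Krt19 (1.03) in the same direction without overlap. These keratins carry most of the higher marker sum with dox in BME. On plastic Krt19 was 1633 to 3061 with dox and 3956 to 5718 untreated (change -0.95, SE 0.35, adjusted p = 0.567), and Krt20, of differentiated cells, had a change of 1.32 with overlap.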

How the data were processed

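Per the submitters' processing notes, the authors processed the RNA-Seq reads with kallisto and DESeq2, and mm9 is named as the genome build. Versions are not given in the sources used here. The authors deposited FPKM, fragments per kilobase of transcript scaled to library size, in 1 table for each environment, normalized on its own 6 libraries. The authors' deposited comparison tables hold a mean normalized count, a signal over the libraries, and their fold changes and p-values, which were not used. The mean normalized count was used with the steps of low FPKM values to rebuild reads (87.8% to 90.3% of low values whole within 0.1), for depth and 1 alternative.

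Values were analysed as log2(FPKM + 1), and a change on this scale understates that of low genes. Genes with a mean of at least 0.5 FPKM were kept (12996 in BME, 12333 on plastic). Dox and control were compared in each table with limma 3.58.1 under R 4.3.3 (lmFit, then eBayes with its trend option, two-sided). No block was used in the main fit because the study gives none, so its SEs and p-values also carry the spread between lines. Single genes were also compared by exact permutation over libraries (15 splits in BME, 20 on plastic). The limma fit was tested on simulated data. Promoters came from RefSeq (GRCm38.p6) and gene positions from GENCODE (NCBIM37), and neither was converted. Same-line libraries deviated together (correlations 0.70 and 0.68 in BME, 0.46, 0.61 and 0.25 on plastic), so line numbers pair the libraries. The labels do not say that lines are separate animals, so p-values measure the spread between these cultures.

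The genes and lists were chosen with earlier results of these data known. All 10 genes were named. From each other list up to 3 genes were named in each table, those with the largest change over 0.5 in the same direction in every induced pair, with other claudins above the filter, and the 3 closest profiles to the 2 most variable members. Alternatives were the pseudocount, filters, quantile normalization, trend, line block, place of the mock library, leaving out each library, and limma-voom on rebuilt reads, which was chosen after seeing the data. A gene that this rule names is not reported here.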

Additional observations from a re-analysis of the deposited data

Results flagged for a closer look

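Among 37 genes examined, 3 had 1 of the 4 BME control libraries far from the others, where chance gives about 1.85 for independent libraries (gap to the nearest library over the whole range, above Dixon's 95% critical value for 4 libraries). Of the 4 libraries 2 are of line 682 (untreated and mock) and are not independent. Gata4, a transcription factor of the proximal intestine, was 2.14 FPKM in untreated line 889 and 75.5 to 76.8 in the other 3 (gap over range 0.995). Its relative Gata6 was highest in the same library, at 26.9 FPKM against 10.5 to 12.1 (0.855). Jam2, a junctional adhesion molecule, was highest in untreated line 700, at 2.52 FPKM against 0.0126 to 0.197 (0.866). The BME dox libraries of lines 889 and 700 split by line in the same way. They had 1.97 and 92.4 FPKM for Gata4, 104 and 10.6 for Gata6, and 0.103 and 2.04 for Jam2. On plastic Gata4 was likewise 44.2 FPKM in untreated line 700 and 4.59 and 5.31 in untreated lines 889 and 560.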

How the results depend on the processing

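None of the 8 tested genes was called under any alternative in which it was tested, nor were Cldn1 and Cldn18 without a filter, the only setting that tested them, and of the members' changes recomputed under them 268 kept their direction and stayed uncalled, whatever side of a change of 1 they lay on, and 27 turned sign. Genes called over the whole table in BME numbered 3, and 1 with a pseudocount of 0.1 or limma-voom, 0 with a minimum mean of 2 FPKM, with the line block, with the mock library left out or counted with dox, and 0 to 37 with 1 library left out (37 without dox line 700, where the lone dox library is assumed to vary like the controls). On plastic 4 were called, and 10 with a pseudocount of 0.1 or limma-voom, 0 without a filter, 7 with the line block, and 0 to 55 with 1 library left out (55 without dox line 700, 2 without dox line 889). The interaction gave 0, and 5 without a filter. The cause of these moves was not tested.

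The members' median change in BME (0.03) was -0.0676 with the line block, -0.10 with the mock library counted with dox and -0.0319 to 0.277 with 1 library left out (-0.0319 without the mock library, 0.277 without dox line 700, 0.246 without untreated line 889). It stayed at 0.0602 or above where another library than the mock was left out. On plastic (0.14) it was -0.0012 without a filter and -0.0677 to 0.310 with 1 library left out (the lowest without dox line 560, the highest without dox line 700). For the interaction (0.20) it was 0.0318 without a filter, 0.41 with the block, 0.39 without the mock library, 0.55 with it counted as dox and 0.40 in lines 700 and 889 alone, where Cldn15 was below the filter.

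Signs turned for changes that were never called. In BME, Cldn3 was -0.14 with the line block and -0.35 with the mock library counted with dox, Cldn7 -0.047 with quantile normalization and -0.0651 with the mock library counted with dox, Cldn23 0.0021 with quantile normalization and Ocln 0.0048 with the block. The block also gave 0.014 for Cldn7 and -0.221 for Tjp1 in BME. On plastic Cldn23 was -0.0667 with limma-voom. In the interaction Cldn3 was 0.15 with the mock library counted with dox and 0.40 in lines 700 and 889 alone, and Tjp1 0.0497 with the block. With 1 library left out, changes in BME ran from -0.023 to 0.243 for Cldn7, -1.66 to 0.408 for Cldn15, -0.386 to 0.340 for Cldn23 (-0.386 without the mock library, -0.235 without dox line 889), -0.317 to 0.163 for Ocln and -0.884 to 0.649 for Tjp1. On plastic they ran from -0.450 to 0.166 for Cldn3, -0.692 to 1.83 for Cldn15, -0.400 to 0.432 for Cldn23 and -1.13 to 0.417 for Tjp1. Cldn2 and Cldn4 kept their sign in both tables, though Cldn4 in BME was 0.0167 with the mock library counted with dox. The line block changed no call of a member. On plastic it left the members' changes as they were, with SEs of 0.67 for Cldn2, 0.36 for Cldn3, 0.34 for Cldn4 and 0.21 for Cldn7. The block SEs there were 0.35 for Cldn15, 0.22 for Cldn23, 0.21 for Ocln and 0.57 for Tjp1. Depth limits Cldn1 and Cldn18, with at most 2 and 19 rebuilt reads.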
